A study of Rattus norvegicus with 24 samples.

Results

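Egr1, Jun, Dusp1 and Gadd45g were followed as a set of 4 immediate early and stress response genes in rat liver. Every probe that carried one of these names, an older symbol or the gene's RefSeq record was taken, which gave 12 probes of 8 distinct 60-base oligonucleotides out of 21900 probes on the array. Of these, 11 passed the filter on dim probes, which 16085 probes of the array passed, and the 4 genes were among 11597 genes tested.

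Immediate early genes are transcribed within minutes of a stimulus, from factors that already sit in the cell, and their transcripts are short-lived. Signals that reach the MAP kinases or cyclic AMP drive them, and in liver they are known for rising after growth factors, fasting hormones, handling, partial hepatectomy and toxic injury. Egr1 encodes a zinc finger transcription factor, Jun a subunit of the AP-1 transcription factor, Dusp1 a phosphatase that switches off MAP kinases, and Gadd45g a small protein that binds MAP3K4 and cell cycle kinases.

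The study gave male F344 (Fischer) rats, labelled as 5 weeks old, a compound by gavage once a day for 28 days at 5 ml/kg, with 4 treated rats for each of 6 compounds. Hexachloroethane (500 mg/kg/day), 1,2,3-Trichloropropane (50 mg/kg/day), 1-Amino-2-methylanthraquinone (150 mg/kg/day) and 3-(4-Chlorophenyl)-1,1-dimethylurea (250 mg/kg/day, the herbicide monuron) were the 4 carcinogens, and 1,2-Dichlorobenzene (300 mg/kg/day) and Tetracycline hydrochloride (1000 mg/kg/day) the 2 non-carcinogens. The vehicle was water for tetracycline and corn oil for the other 5, and each array carried Cy3-labelled RNA of 1 treated rat against a Cy5-labelled pool of 4 control rats given the vehicle. Values are log2 ratios of treated rat over vehicle pool, so that 0 is the pool's level, 1 is 2-fold higher and -1 is 2-fold lower. The pool counts as 1 control sample, its rat-to-rat spread is not measured, no dyes were swapped, and a dye bias of a probe stays in its ratio against vehicle but cancels between compounds. All 4 arrays of a compound lay on 1 slide, which cannot be told apart from the compound, and 2 pairs of compounds shared a scan day, hexachloroethane with tetracycline and monuron with 1,2-dichlorobenzene.

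The oligos that carried the values are shown here because the readings of a gene rest on them, and because 1 pair for Egr1 lies on opposite strands. Of the 60 bases, 30 are printed for each, except for the second Dusp1 oligo, which is printed whole and which reads through in 1 of its 3 frames with no stop codon. The pair on opposite strands shares 54 bases, as each other's reverse complement, and the printed bases are the same stretch read from each strand.
Egr1, oligo used: aaacaaagtgacttgtttggcttataaaca
Egr1, second oligo: actgaaaatgtagatttatccatgttcggg
Egr1, opposite strand of the second oligo: cccgaacatggataaatctacattttcagt
Jun, oligo used: catgtttgtttgtttgggtgtcctacccag
Jun, second oligo: ttcagcaattagatgtttatctcaaagcca
Dusp1, oligo used: cttcgtgcttgacatacctaccagtattaa
Dusp1, second oligo: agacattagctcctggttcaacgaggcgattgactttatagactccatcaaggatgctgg
Gadd45g, oligo used: ccgggcaatgctttcattttctaaaggacg

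Probes with the same or different oligos of a gene gave nearly the same order of rats. All 11 probes that passed the filter were well above background on 24 of 24 arrays in both channels and saturated on 0, and the Egr1 oligo on the opposite strand was well above background on 0 arrays in either channel. For Egr1, the second oligo correlated with the one used at r = 0.997 to 0.998 over the 24 arrays and read 0.12 to 0.13 lower in log2 ratio. For Jun, the second oligo correlated at r = 0.952 to 0.959 but read 0.35 to 0.37 higher, so that Jun's level against vehicle depends on the oligo while the order of compounds and rats does so less. For Dusp1, the second oligo read 0.32 higher (r = 0.975), and the repeat of the Gadd45g oligo differed by at most 0.08 on any array.

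The 250 bases before the transcription start are printed for the 3 genes that RefSeq's promoter table (build GRCr8) holds, because these are the regions through which immediate early genes are known to respond. Capitals mark the motifs found, on either strand. The letters searched were TGACGTCA (the cyclic AMP response element), its core TGACG, which lies inside it, TGANTCA (AP-1), the CArG box of serum response factor by its name, GCGNGGGCG (EGR factors), CACGTG (the E-box) and TATAAA.
Egr1, chr18:26736828-26737077, plus strand: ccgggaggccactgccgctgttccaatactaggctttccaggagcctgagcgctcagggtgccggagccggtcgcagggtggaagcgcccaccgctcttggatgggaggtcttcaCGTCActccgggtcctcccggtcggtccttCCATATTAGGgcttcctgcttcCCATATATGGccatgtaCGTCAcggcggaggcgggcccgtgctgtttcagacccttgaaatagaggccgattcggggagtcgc
Dusp1, chr10:17184603-17184852, plus strand: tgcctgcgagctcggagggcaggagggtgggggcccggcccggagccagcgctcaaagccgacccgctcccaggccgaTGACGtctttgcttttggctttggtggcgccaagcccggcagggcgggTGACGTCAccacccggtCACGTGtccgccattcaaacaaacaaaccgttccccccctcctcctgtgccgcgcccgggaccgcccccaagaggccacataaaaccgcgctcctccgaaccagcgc
Gadd45g, chr17:13530352-13530601, minus strand: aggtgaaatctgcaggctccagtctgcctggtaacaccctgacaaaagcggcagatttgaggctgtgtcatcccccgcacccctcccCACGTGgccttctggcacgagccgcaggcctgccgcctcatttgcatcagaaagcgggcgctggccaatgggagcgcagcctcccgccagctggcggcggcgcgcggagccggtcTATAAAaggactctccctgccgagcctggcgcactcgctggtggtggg

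The Egr1 stretch held 2 CArG boxes, at 105 to 96 and at 83 to 74 bases before the start, and 2 TGACG cores. Such a box was in 1.5% of the 33469 rat promoter stretches of this length, and the TGACG core in 18.2%. The Dusp1 stretch held 1 TGACGTCA, at 124 to 117 bases before the start, against 1.59% of stretches, and 1 CACGTG, against 5.59%. It also held 3 TGACG cores, 1 apart at 172 to 168 bases before the start and 2 inside the TGACGTCA. The Gadd45g stretch held 1 CACGTG and 1 TATAAA, the latter in 12.9% of stretches. TGANTCA (6.34% of stretches) and GCGNGGGCG (4.29%) were in none of the 3. A match is a description of letters and not a measured site.

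On the 24 arrays, 59.7% to 71.7% of probes were clearly above background for the treated rat and 64.2% to 75.9% for the vehicle pool, and rats of a compound correlated with each other at r = 0.379 to 0.914 over all genes. All 9 hepatocyte markers looked for passed the filter, and 1 of 9 markers of pancreatic acinar cells did. Nothing in the labels says that a rat's number ties it to a rat of another compound.

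Over the 4 genes and 6 compounds, Dusp1 was lower than vehicle under all 5 compounds given in corn oil, Gadd45g was lower under 3 of them, Jun under 2, and Egr1 was higher under tetracycline and 1-amino-2-methylanthraquinone. A gene was called where limma's Benjamini-Hochberg adjusted p over all 11597 genes was under 0.05. Of the 24 comparisons with vehicle, 2 were called higher, 10 lower and 12 were not called. Calls were common over the whole array. Of all genes, 18.8% were called higher and 24.7% lower under hexachloroethane, 20.8% and 24.9% under 1,2,3-trichloropropane, 27.7% and 31.1% under 1-amino-2-methylanthraquinone, 19.9% and 26.2% under monuron, 25.1% and 26.6% under 1,2-dichlorobenzene, and 15.7% and 21.7% under tetracycline. Of the calls, 42.0% to 48.6% were thus higher, by compound, and 27.4% to 29.4% were with median centring of each array in place of loess, which moved the median of all genes to between -0.33 and -0.21. Each of the 12 called directions was the same under the scanner's own ratio, median centring and the deposited value table.

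**Figure D1:**
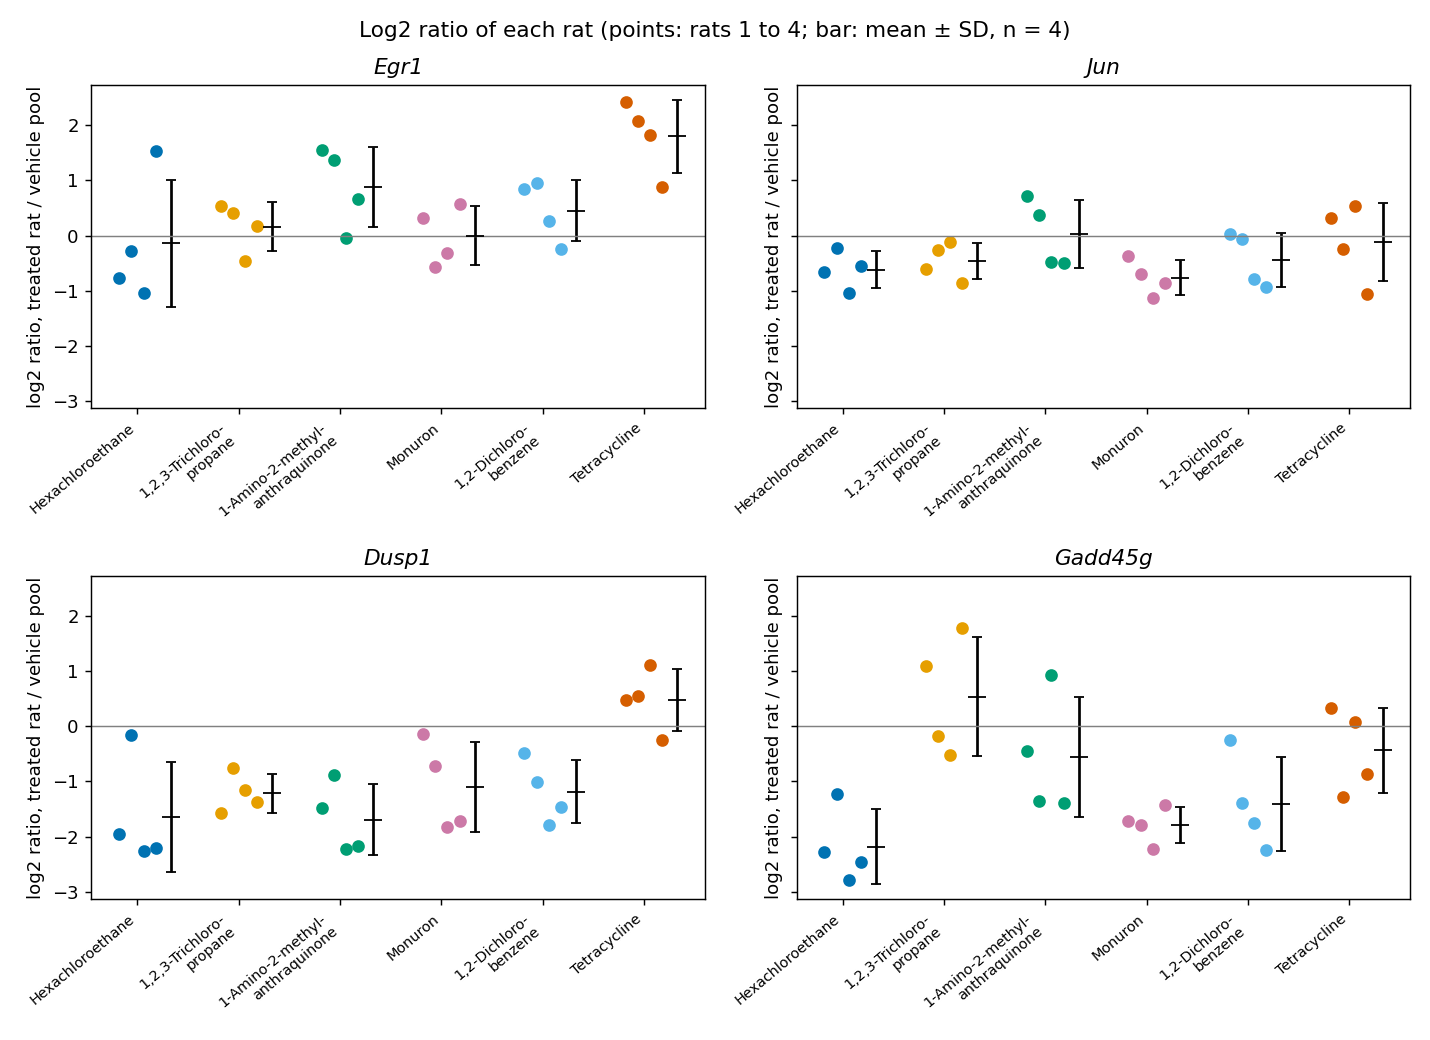
Log2 ratio of each treated rat over its vehicle pool (y axis) for Egr1, Jun, Dusp1 and Gadd45g under the 6 compounds (x axis). Points are the 4 rats of a compound in order of their number and bars are the mean ± SD. All 20 Dusp1 points of the corn oil compounds lie below 0, and the Egr1 points of tetracycline lie between 0.88 and 2.42.

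Egr1, the zinc finger factor, was highest under tetracycline. There the 4 rats had log2 ratios of 2.42, 2.08, 1.82 and 0.88, a mean of 1.80 ± 0.66 (SD, n = 4), or 3.48-fold over vehicle (adjusted p 0.000251). All 4 rats were above 0, and 4 of the 20 rats of the other compounds reached the lowest of them. Under 1-amino-2-methylanthraquinone the rats had 1.55, 1.36, -0.05 and 0.66, a mean of 0.88 ± 0.73 (SD, n = 4; adjusted p 0.0278). Rats 1 and 2 were high and rat 3 was at the vehicle's level. The call was lost without rat 1 (mean 0.66, adjusted p 0.155), without rat 2 (0.72, adjusted p 0.125) and with median centring (0.48, adjusted p 0.147).

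Hexachloroethane gave Egr1 its widest spread, with -0.77, -0.29, -1.04 and 1.53 in rats 1 to 4 and a mean of -0.14 ± 1.15 (SD, n = 4; adjusted p 0.765). Rat 4 alone was above 0. The same rat had a log2 ratio of 2.11 for Hspa1a, an inducible heat shock chaperone, against 0.13 to 0.58 in the other 3. Under 1,2,3-trichloropropane the Egr1 ratios were 0.53, 0.40, -0.46 and 0.17 (mean 0.16 ± 0.44, SD, n = 4; adjusted p 0.719). Monuron gave 0.31, -0.57, -0.32 and 0.57 (mean -0.00 ± 0.53; adjusted p 0.995). These compounds had rats on both sides of 0. 1,2-dichlorobenzene gave 0.84, 0.94, 0.26 and -0.24 (mean 0.45 ± 0.55; adjusted p 0.268), with 3 of 4 rats above 0. The 95% intervals of the 4 means not called were wide, from -0.83 to 0.55 under hexachloroethane and from -0.24 to 1.14 under 1,2-dichlorobenzene.

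Jun, the AP-1 subunit, was lower than vehicle under monuron and hexachloroethane. Under monuron the 4 rats had -0.37, -0.70, -1.13 and -0.86, a mean of -0.77 ± 0.32 (SD, n = 4), or 1.70-fold lower (adjusted p 0.0093). Under hexachloroethane they had -0.66, -0.22, -1.04 and -0.56, a mean of -0.62 ± 0.34 (adjusted p 0.0323). All 8 of these rats were below 0. Both calls rest on the oligo: the mean of Jun's 3 probes gave -0.50 (adjusted p 0.0709) and -0.37 (adjusted p 0.191). The monuron call was lost without rat 3 (mean -0.64, adjusted p 0.0596), and the hexachloroethane call without rat 1 (-0.61, adjusted p 0.0778), rat 3 (-0.48, adjusted p 0.169) or rat 4 (-0.64, adjusted p 0.0747).

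In the remaining compounds Jun was not called. 1,2,3-trichloropropane gave -0.60, -0.26, -0.12 and -0.85 (mean -0.46 ± 0.33; adjusted p 0.107), all below 0. 1,2-dichlorobenzene gave 0.02, -0.07, -0.78 and -0.94 (mean -0.44 ± 0.49; adjusted p 0.111), with rats 3 and 4 low. 1-amino-2-methylanthraquinone gave 0.71, 0.38, -0.49 and -0.49 (mean 0.03 ± 0.61; adjusted p 0.929). The rats of this compound fell to either side of 0, and with median centring the mean was -0.54 (adjusted p 0.0216), the opposite sign. Tetracycline gave 0.31, -0.25, 0.53 and -1.06 (mean -0.12 ± 0.71; adjusted p 0.723), with rat 4 low.

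Dusp1, the MAP kinase phosphatase, was below vehicle in all 20 rats of the corn oil compounds, from -2.26 to -0.13, with a median of -1.46. Of all genes, 5.46% were below 0 in each of these 20 rats, and 3.93% were called lower under each of the 5 compounds. The 5 pools were not one sample, since a control group was kept for each compound, but whether they share rats is not given in the sources used here.

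Under 1-amino-2-methylanthraquinone the Dusp1 ratios were -1.48, -0.88, -2.23 and -2.17 (mean -1.69 ± 0.64, SD, n = 4; 3.23-fold lower; adjusted p 0.000122). Under hexachloroethane they were -1.96, -0.16, -2.26 and -2.20 (mean -1.64 ± 1.00; adjusted p 0.0003). Rat 2 of hexachloroethane stood close to vehicle while the other 3 were far below it. Under 1,2,3-trichloropropane they were -1.57, -0.75, -1.16 and -1.38 (mean -1.21 ± 0.35; adjusted p 0.00393). The 1,2-dichlorobenzene rats had -0.48, -1.01, -1.80 and -1.45 (mean -1.19 ± 0.57; adjusted p 0.00383). Both sets were on 1 side of 0 with no rat apart. Monuron gave -0.13, -0.72, -1.83 and -1.71 (mean -1.10 ± 0.81; adjusted p 0.00782), a call that was lost without rat 3 (mean -0.86, adjusted p 0.0665) or rat 4 (-0.89, adjusted p 0.0592).

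Tetracycline was the compound under which Dusp1 was not lower. Its rats had 0.47, 0.55, 1.11 and -0.26, a mean of 0.47 ± 0.56 (SD, n = 4; adjusted p 0.261; 95% interval -0.19 to 1.13). Rats 1 to 3 lay above every corn oil rat, and 2 of the 20 corn oil rats lay above rat 4.

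Gadd45g, the growth arrest protein, had the widest range of the 4 genes, from -2.78 to 1.78 over the 24 rats. Hexachloroethane gave -2.27, -1.22, -2.78 and -2.46, a mean of -2.19 ± 0.68 (SD, n = 4), or 4.55-fold lower (adjusted p 0.000126). Monuron gave -1.72, -1.79, -2.22 and -1.43, a mean of -1.79 ± 0.33 or 3.46-fold lower (adjusted p 0.000843). 1,2-dichlorobenzene gave -0.24, -1.39, -1.75 and -2.25 (mean -1.41 ± 0.85; adjusted p 0.00476). All 12 rats of these compounds were below 0, and 1,2-dichlorobenzene's rat 1 was nearest to it.

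The other 3 compounds had Gadd45g on both sides of vehicle. 1,2,3-trichloropropane gave 1.08, -0.18, -0.53 and 1.78 (mean 0.54 ± 1.08; adjusted p 0.275; 95% interval -0.27 to 1.35), so that rats 1 and 4 were high and rats 2 and 3 were not. 1-amino-2-methylanthraquinone gave -0.45, -1.35, 0.93 and -1.38 (mean -0.56 ± 1.08; adjusted p 0.224). Rat 3 of this compound was high, and without it the mean was -1.06 and was called lower (adjusted p 0.0314). Tetracycline gave 0.33, -1.28, 0.07 and -0.87 (mean -0.44 ± 0.76; adjusted p 0.404).

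Between compounds, 3 of the 4 genes differed and Jun was not called. In the F test over the 6 compounds, which called 76.9% of all genes, Gadd45g had an adjusted p of 0.00159, Dusp1 of 0.00241, Egr1 of 0.00808 and Jun of 0.194. Jun passed it (adjusted p 0.0384) without rat 4 of tetracycline. The share of each gene's variance that lay between compounds was 61.6% for Gadd45g, 59.6% for Dusp1, 53.1% for Egr1 and 29.4% for Jun, against a median of 62.5% over all genes.

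Each compound was also set against the mean of the other 5, where a fixed dye bias cancels. The level of each compound's own pool does not cancel, here or between pairs of compounds. The SEs and p-values hold the spread between treated rats and no error of the pools. Over all genes this called 28.3% for hexachloroethane, 30.6% for 1,2,3-trichloropropane, 48.4% for 1-amino-2-methylanthraquinone, 22.4% for monuron, 31.0% for 1,2-dichlorobenzene and 32.8% for tetracycline. Of the 24 comparisons of the 4 genes, 3 were called higher and 1 lower. Dusp1 was 1.84 ± 0.35 (SE) higher under tetracycline, at 0.47 against -1.37 (adjusted p 0.000496). Gadd45g was 1.81 ± 0.43 (SE) higher under 1,2,3-trichloropropane, at 0.54 against -1.28 (adjusted p 0.00296), and lower under hexachloroethane, with a log2 difference of -1.45 (-2.19 against -0.73). Egr1 was 1.53 ± 0.36 (SE) higher under tetracycline, at 1.80 against 0.27 (adjusted p 0.00311).

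Single rats moved some of these comparisons with the other compounds. The lower Gadd45g of hexachloroethane (adjusted p 0.0141) was no longer called without rat 3 (-1.25, adjusted p 0.0742) or rat 4 (-1.36, adjusted p 0.0548). Egr1 under hexachloroethane, at -0.80 with all rats (adjusted p 0.107), was called lower without rat 4 (-1.36, adjusted p 0.00596). Dusp1 under hexachloroethane was called lower without rat 2 (-1.19, adjusted p 0.0116), and Dusp1 under 1-amino-2-methylanthraquinone without rat 2 (-1.02, adjusted p 0.0379).

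Of the 15 pairs of compounds, 5 were called for Dusp1, 5 for Gadd45g, 4 for Egr1 and 0 for Jun. The 5 Dusp1 pairs were tetracycline against each other compound, with log2 differences of 2.16 against 1-amino-2-methylanthraquinone (adjusted p 0.000625), 2.11 against hexachloroethane (0.00283), 1.69 against 1,2,3-trichloropropane (0.00676), 1.66 against 1,2-dichlorobenzene (0.00637) and 1.57 against monuron (0.015). These pairs called 43.2%, 17.4%, 33.9%, 37.4% and 24.4% of all genes. The 4 Egr1 pairs were the same pairs without 1-amino-2-methylanthraquinone, where tetracycline was 0.92 higher (adjusted p 0.123). The Egr1 differences were 1.94 against hexachloroethane (adjusted p 0.0071), 1.80 against monuron (0.00825), 1.64 against 1,2,3-trichloropropane (0.0105) and 1.35 against 1,2-dichlorobenzene (0.0285).

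For Gadd45g, 1,2,3-trichloropropane was above hexachloroethane by 2.72 (adjusted p 0.000706), above monuron by 2.33 (0.00414) and above 1,2-dichlorobenzene by 1.94 (0.0244). These pairs called 35.0%, 25.2% and 12.7% of all genes. Tetracycline was above hexachloroethane by 1.75 (adjusted p 0.0325) and 1-amino-2-methylanthraquinone above it by 1.62 (0.0226), a pair that called 41.1% of genes. The Jun pair with the smallest adjusted p, 0.0547, was 1-amino-2-methylanthraquinone over monuron, by 0.79 (95% interval 0.12 to 1.46), a pair that called 40.8% of genes. The remaining pairs called 23.7% (hexachloroethane and monuron), 31.5% (hexachloroethane and 1,2-dichlorobenzene), 44.2% (1,2,3-trichloropropane and 1-amino-2-methylanthraquinone), 45.6% (1-amino-2-methylanthraquinone and 1,2-dichlorobenzene) and 23.9% (monuron and 1,2-dichlorobenzene), and none of the 4 genes in them.

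Ordered from lowest to highest mean log2 ratio, Dusp1 ran from 1-amino-2-methylanthraquinone through hexachloroethane, 1,2,3-trichloropropane, 1,2-dichlorobenzene and monuron to tetracycline. In the treated channel alone, Dusp1 ran from monuron (log2 intensity 10.83) through 1,2-dichlorobenzene, 1,2,3-trichloropropane and 1-amino-2-methylanthraquinone to hexachloroethane (11.59) among corn oil compounds. Dusp1 in the vehicle pools of these compounds ran in that same order, from 11.93 to 13.23. In the ratios, the step from monuron to tetracycline was the only one between neighbours that was called, over all 4 genes. For Egr1 the order was hexachloroethane, monuron, 1,2,3-trichloropropane, 1,2-dichlorobenzene, 1-amino-2-methylanthraquinone and tetracycline, and for Gadd45g it was hexachloroethane, monuron, 1,2-dichlorobenzene, 1-amino-2-methylanthraquinone, tetracycline and 1,2,3-trichloropropane. Jun ran from monuron through hexachloroethane, 1,2,3-trichloropropane, 1,2-dichlorobenzene and tetracycline to 1-amino-2-methylanthraquinone. Within the scan day that hexachloroethane and tetracycline shared, Egr1, Dusp1 and Gadd45g were higher under tetracycline by the values given, and within the day of monuron and 1,2-dichlorobenzene no member was called. Tetracycline's compound, water vehicle and slide cannot be told apart.

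The 4 carcinogens and the 2 non-carcinogens were compared with the compound as a random block. Dusp1 averaged -1.41 under carcinogens and -0.36 under non-carcinogens, Egr1 0.22 and 1.13, Jun -0.45 and -0.28, and Gadd45g -1.0 and -0.92. None was called (adjusted p 1.00 for each), nor was any of the 11597 genes (0%), with 191 at an unadjusted p under 0.05 in limma.

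The levels of each channel were read separately, an analysis chosen after the ratios had been seen. Within a compound the vehicle pool was read 4 times, and its SD over the 4 arrays was 0.04 to 0.09 for Egr1, 0.01 to 0.07 for Jun, 0.02 to 0.13 for Dusp1 and 0.02 to 0.07 for Gadd45g, in log2 intensity. The treated channel of the same arrays had SDs of 0.46 to 1.12, 0.32 to 0.72, 0.31 to 0.98 and 0.32 to 1.11 for these genes. The spread of the ratios was in the channel of the single rats, while the repeated reading of a pool varied little. The design leads to this, since a pool is 1 sample read 4 times while each array has its own treated rat.

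**Figure D2:**
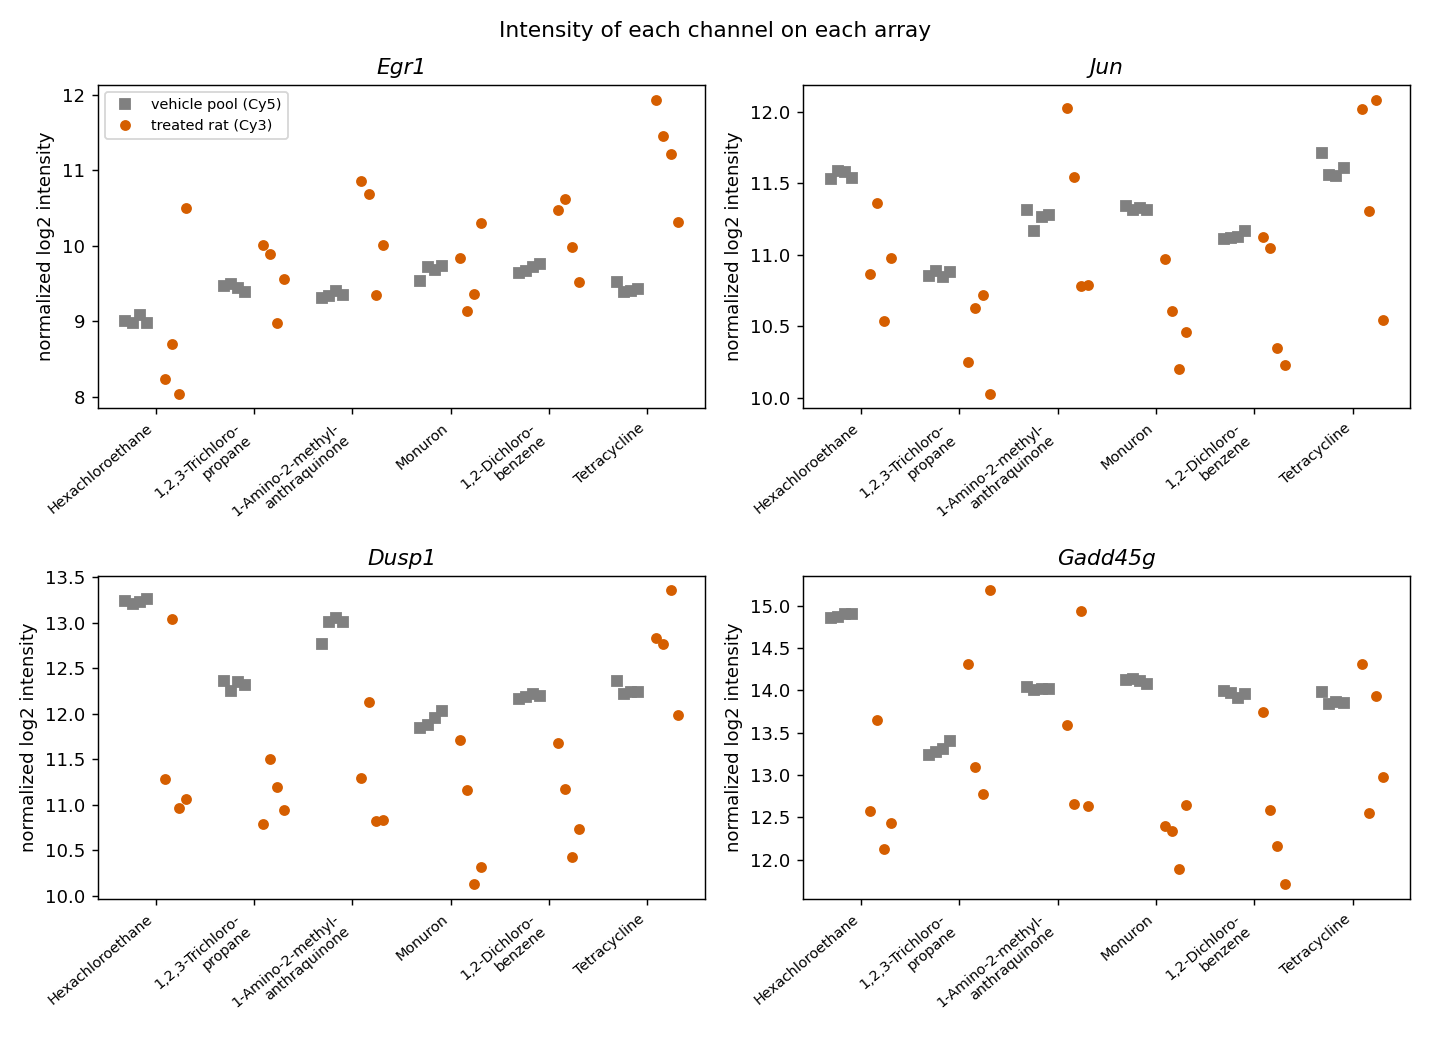
Normalized log2 intensity (y axis) of the vehicle pool (squares) and of the treated rat (circles) on each of the 4 arrays of a compound (x axis) for the 4 genes. Squares of a compound lie close together, circles spread, and the squares of Gadd45g reach a mean of 14.88 in hexachloroethane and 13.31 in 1,2,3-trichloropropane.

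The pools themselves differed between compounds. The mean vehicle level of Gadd45g ran from 13.31 beside 1,2,3-trichloropropane to 14.88 beside hexachloroethane, a range of 1.58, which 1.29% of probes exceeded. For Dusp1 the range of vehicle means was 1.30 (2.08% of probes exceeded it), for Jun 0.74 and for Egr1 0.69, against a median of 0.36 over probes. Of the Gadd45g difference in ratio between hexachloroethane and 1,2,3-trichloropropane, -1.15 was in the treated channel and 1.58 in the vehicle channel (hexachloroethane minus 1,2,3-trichloropropane). In the treated channel hexachloroethane, at 12.70, was not the lowest for Gadd45g. Monuron had 12.32 and 1,2-dichlorobenzene 12.55, and the remaining compounds had 13.45 to 13.84. Hexachloroethane's pool, at 14.88, was the highest, with the other pools at 13.31 to 14.11. For Dusp1, the treated channel averaged 12.73 under tetracycline and 10.83 to 11.59 under the others, while tetracycline's vehicle pool, at 12.26, lay inside the range of the corn oil pools, 11.93 to 13.23. Egr1 was likewise highest in the treated channel under tetracycline, at 11.23 against 8.87 to 10.23, with a pool at 9.43 against 9.01 to 9.70. For Jun, the treated channel averaged 10.94 under hexachloroethane, above 1,2,3-trichloropropane (10.41), monuron (10.56) and 1,2-dichlorobenzene (10.69). The remaining compounds had 11.28 and 11.49. Hexachloroethane's Jun pool, at 11.56, was the highest of the corn oil pools, with the others at 10.87 to 11.32. Differences between pools, slides and scan days cannot be told apart.

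The 4 genes were among the most variable between rats of a compound. The residual SD within compounds was 0.84 for Gadd45g, 0.72 for Egr1, 0.69 for Dusp1 and 0.49 for Jun, against a median of 0.10 and a 99th percentile of 0.55 over all genes. Of 11597 genes, 12 were more variable than Gadd45g (0.103%), 38 than Egr1 (0.328%), 51 than Dusp1 (0.44%) and 174 than Jun (1.5%). By compound, the SD of Egr1 ran from 0.44 under 1,2,3-trichloropropane to 1.15 under hexachloroethane, and that of Gadd45g from 0.33 under monuron to 1.08 under 1-amino-2-methylanthraquinone. Gadd45g under monuron thus combined a low level with a spread that was small for this gene, though above the median of 0.10 over all genes. Dusp1 ran from 0.35 under 1,2,3-trichloropropane to 1.00 under hexachloroethane, and Jun from 0.32 under monuron to 0.71 under tetracycline.

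**Figure D3:**
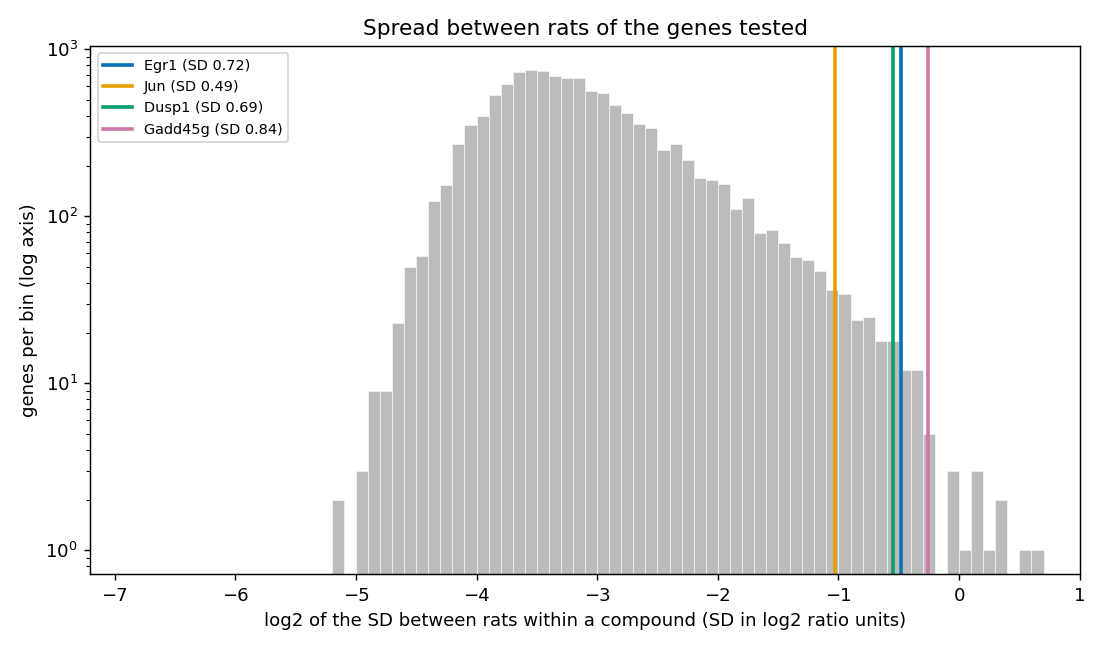
Number of genes (y axis, log scale) by the SD between rats within a compound (x axis, log2 of the SD in log2 ratio units) for all 11597 genes tested. Vertical lines mark Jun, Dusp1, Egr1 and Gadd45g, which lie in the right tail at SDs of 0.49, 0.69, 0.72 and 0.84.

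Rats in which Jun was high for their compound were also high in Dusp1. Over 24 rats, with each rat's ratio taken as its deviation from the mean of its compound, Jun and Dusp1 had r = 0.754 and rho = 0.768 (permutation tests within compounds, 100000 resamples; adjusted p 0.00036 and 0.00042 over 6 pairs of genes). The relation was positive in 6 of 6 compounds, and r was 0.771 without the 2 rats farthest in Jun. Egr1 and Jun had r = 0.548 and rho = 0.642 (permutation adjusted p 0.0366 and 0.0185), positive in 5 of 6 compounds, with r = 0.611 without the 2 farthest rats. With the scanner's ratio and with the deposited value table r was 0.484 and 0.481 and no longer passed (permutation adjusted p 0.0809 and 0.0872). The other 4 pairs had r = 0.121 to 0.227 (permutation adjusted p 0.535 to 0.602) and rho = 0.182 to 0.352 (0.289 to 0.382), and did not pass. Without the 2 rats farthest in Egr1, r was 0.412 for Egr1 with Gadd45g and 0.373 for Egr1 with Dusp1. Jun with Gadd45g had 0.155 without the 2 rats farthest in Jun, and Dusp1 with Gadd45g 0.072 without the 2 farthest in Dusp1. Both genes of a pair were read on the same array from the same RNA, which they share.

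**Figure D4:**
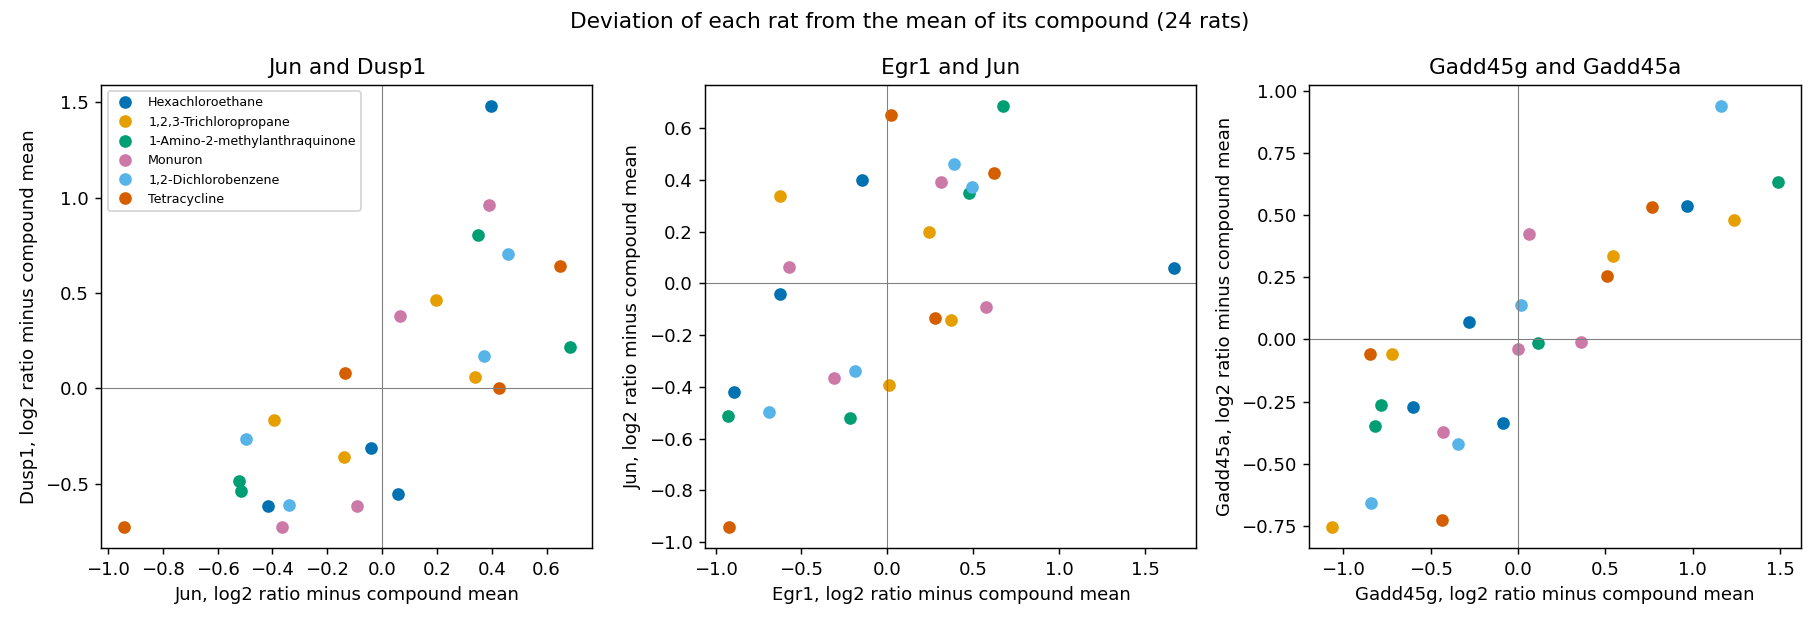
Deviation of each of the 24 rats from the mean log2 ratio of its compound, coloured by compound, for Jun and Dusp1 (left), Egr1 and Jun (middle) and Gadd45g and Gadd45a (right). Points run from lower left to upper right in each panel, with r = 0.754, 0.548 and 0.860, and 1 hexachloroethane rat lies apart in Egr1.

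The genes whose deviations ran most like those of each member were named among 4687 genes with a symbol, as a description with no test. For Gadd45g they were Gadd45a (r = 0.860), the p53-responsive member of its family, Myc (0.788), Plk2 (0.763), Ier3 (0.761) and Alad (0.747). For Dusp1 they included Zfp36 (0.786), which encodes an mRNA decay factor, Jun (0.754), Dmwd (0.728) and Dusp4 (0.687), another MAP kinase phosphatase. Several of these are immediate early genes themselves.

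For Jun they included Klf6 (0.815), Slc4a4 (0.801), Kctd13 (0.788) and Dmwd (0.784), and for Egr1 they were Eif4ebp1 (0.807), Hspa1a (0.795), Serpinh1 (0.736), Atf3 (0.721) and Ccs (0.720). Hspa1a and Serpinh1 encode heat shock proteins. Both had their widest spread under hexachloroethane, where rat 4 deviated by 1.67 in Egr1. The SD there was 0.94 for Hspa1a, against 0.21 to 0.39 under the other compounds, and 0.25 for Serpinh1, against 0.06 to 0.12. These correlations were not recomputed without that rat. With the compound means left in, the most alike were Myc (0.854) for Gadd45g, Dusp4 (0.835) for Dusp1, Klf6 (0.753) for Jun and Ets1 (0.713) for Egr1.

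Gadd45a, beside Gadd45g, was called lower under hexachloroethane alone, with -1.05, -0.18, -0.99 and -0.65 in rats 1 to 4 (mean -0.72; adjusted p 0.0189), and in both genes rat 2 was the nearest to vehicle. Under monuron, where Gadd45g had a mean of -1.79, Gadd45a had -0.01, and its rats were 0.41, -0.06, -0.39 and -0.03. Of 9 measured genes of the growth arrest and DNA damage list, 2 were higher and 2 lower under hexachloroethane, 1 and 2 under 1,2,3-trichloropropane, 3 and 1 under 1-amino-2-methylanthraquinone, 0 and 0 under monuron, 2 and 1 under 1,2-dichlorobenzene, and 0 and 2 under tetracycline. These counts stand beside 15.7% to 27.7% of all genes called higher and 21.7% to 31.1% called lower, by compound. Pcna, the clamp of DNA replication, was higher under 1,2-dichlorobenzene by 0.94 (adjusted p 5.64e-08). Cdk1, a mitotic kinase, was at -0.90 under tetracycline with 1 of 4 rats above 0 (adjusted p 0.0456).

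The other immediate early genes did not share 1 direction. The counts of this and the following lists stand beside 15.7% to 27.7% of all genes called higher and 21.7% to 31.1% called lower, by compound. Of 16 measured transcription factors of this class, 6 were higher and 2 lower under 1-amino-2-methylanthraquinone, 3 and 0 under tetracycline, 3 and 3 under 1,2,3-trichloropropane, 2 and 5 under 1,2-dichlorobenzene, 1 and 3 under monuron, and 0 and 3 under hexachloroethane. Junb, a partner of Jun, was 0.85 higher under 1-amino-2-methylanthraquinone (adjusted p 4.50e-05), and Klf10 0.83 higher under tetracycline (adjusted p 0.00653). Myc was at -1.20 under hexachloroethane (adjusted p 0.0121), and Cebpb was at -1.01 under 1,2,3-trichloropropane (adjusted p 0.00804).

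Of 16 measured immediate early genes that encode no transcription factor, 9 were lower and 2 higher under 1,2,3-trichloropropane, 8 and 1 under monuron, 7 and 1 under 1,2-dichlorobenzene, and 3 and 1 under hexachloroethane. Under 1-amino-2-methylanthraquinone 7 were higher and 3 lower, and under tetracycline 2 and 0. The medians of the list were -0.32, -0.31, -0.33, -0.13, 0.14 and 0.04 in that order of compounds, against medians of all genes of -0.02 to -0.01. Sgk1, a kinase induced by serum and glucocorticoids, was at -1.51 under 1,2-dichlorobenzene (adjusted p 8.67e-05) and at 0.70 under tetracycline. Nfkbia, the NF-kappaB inhibitor, was at -1.32 (adjusted p 1.29e-05), Zfp36 at -1.27 (0.000181) and the kinase Pim3 at -1.26 (0.000517), all under 1,2,3-trichloropropane.

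**Figure D5:**
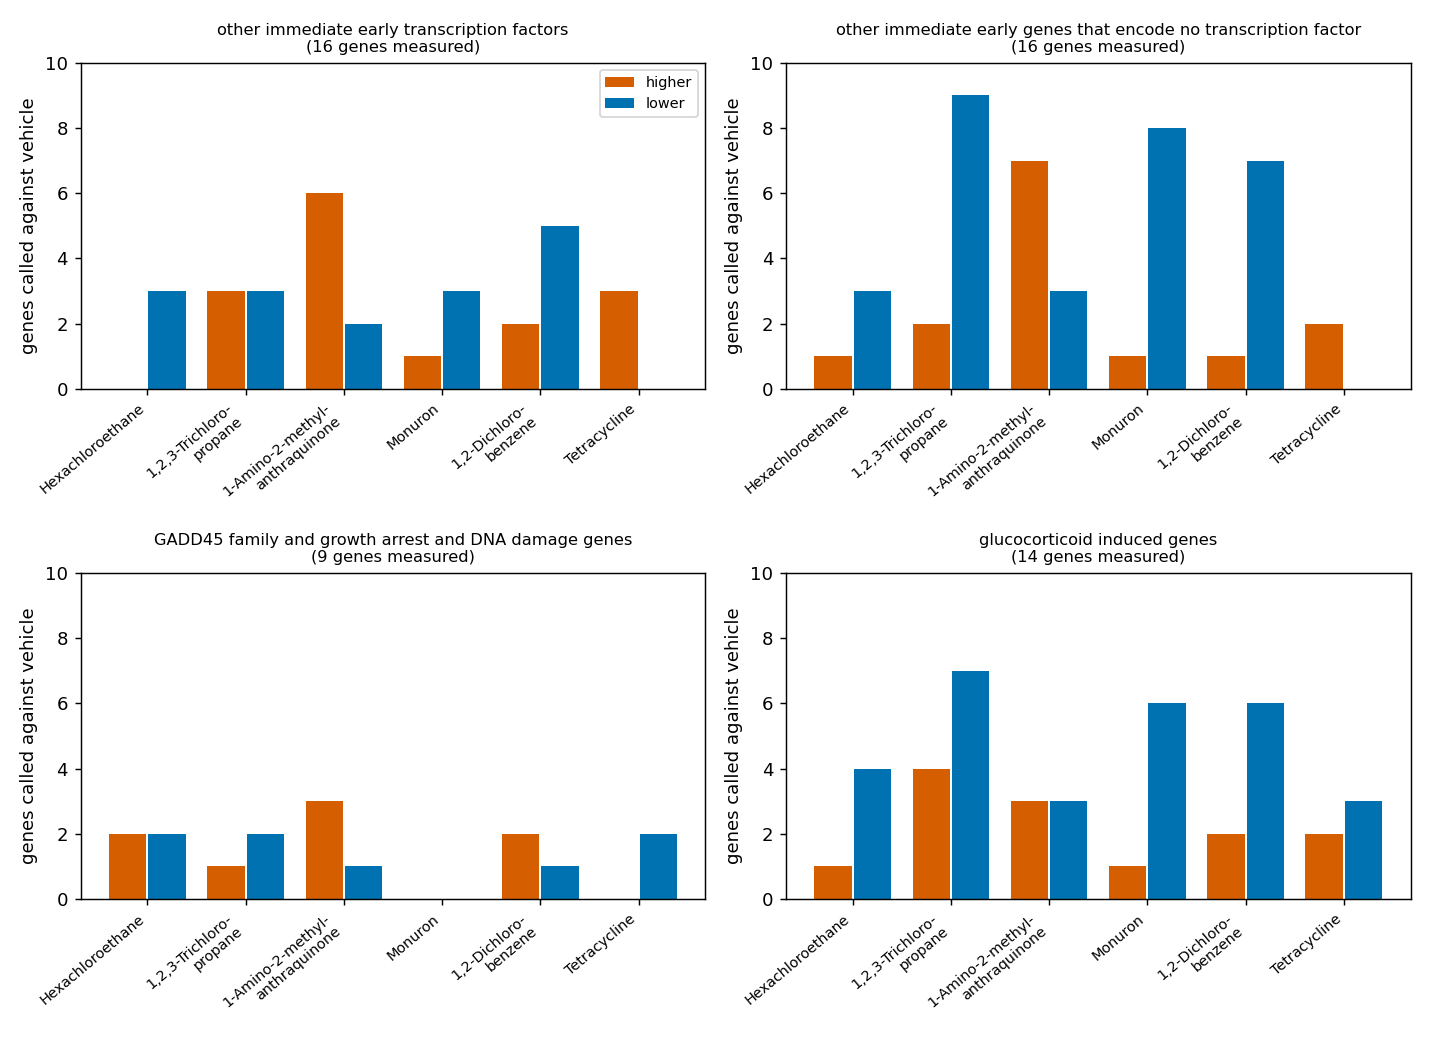
Number of genes called higher and lower than vehicle (y axis) under each compound (x axis) in 4 gene lists. Among immediate early genes that encode no transcription factor, 9 were lower under 1,2,3-trichloropropane and 7 were higher under 1-amino-2-methylanthraquinone.

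Of 4 measured dual specificity phosphatases other than Dusp1, Dusp5 was lower under hexachloroethane (-0.44, adjusted p 0.00675) and Dusp4 under 1-amino-2-methylanthraquinone (-0.42, adjusted p 0.000213). Hexachloroethane had 2 of them lower, 1,2,3-trichloropropane and 1-amino-2-methylanthraquinone 1 lower and 1 higher, and the other 3 compounds 0. Their changes were smaller than that of Dusp1 in these compounds. Of 26 measured members of the MAP kinase cascade, which Dusp1 acts on, 9 to 20 were called by compound but with medians of -0.04 to 0.02. Mapkapk2, a kinase downstream of p38, was at -0.70 under 1,2,3-trichloropropane (adjusted p 1.96e-07).

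Among 17 measured ligands, receptors and corepressors upstream of or bound by Egr1, 7 were lower and 3 higher under hexachloroethane, 7 and 1 under 1,2,3-trichloropropane and under 1,2-dichlorobenzene, 9 and 3 under 1-amino-2-methylanthraquinone, 5 and 3 under monuron, and 1 and 4 under tetracycline. The medians of this list were -0.13 to -0.01. Igf1 was at -0.92 under 1,2-dichlorobenzene, Egf at -0.80 under 1-amino-2-methylanthraquinone and Pdgfrb at -0.71 under monuron, each called lower. Nab2, the Egr1 corepressor and itself an Egr1 target, was 0.52 higher under 1-amino-2-methylanthraquinone (adjusted p 4.03e-06) and at -0.07 under tetracycline. Of 14 measured glucocorticoid-induced genes, 7 were lower and 4 higher under 1,2,3-trichloropropane, 6 and 1 under monuron, 6 and 2 under 1,2-dichlorobenzene, 4 and 1 under hexachloroethane, 3 and 3 under 1-amino-2-methylanthraquinone, and 3 and 2 under tetracycline. Tat, a tyrosine-degrading enzyme, was at -2.21 under 1,2,3-trichloropropane (adjusted p 8.99e-05), and Mt1, a metal-binding protein, at 2.11 under 1,2-dichlorobenzene (adjusted p 1.07e-06).

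Heat shock genes were called in both directions. Of 8 measured, 4 were higher and 1 lower under hexachloroethane, 0 and 7 under 1,2,3-trichloropropane, 4 and 0 under monuron, 1 and 1 under 1-amino-2-methylanthraquinone, and 1 and 2 under 1,2-dichlorobenzene and under tetracycline. Hsp90aa1 was 1.05 higher under hexachloroethane (adjusted p 4.84e-07). Of 12 measured circadian clock genes, 9 were lower and 1 higher under 1-amino-2-methylanthraquinone, 6 and 4 under monuron, 4 and 2 under 1,2,3-trichloropropane, 4 and 1 under 1,2-dichlorobenzene, 3 and 1 under hexachloroethane, and 2 and 0 under tetracycline. Noct was at -2.34 under 1,2,3-trichloropropane (adjusted p 0.000928). Of 10 genes of cytokine and growth hormone feedback, 4 were higher and 4 lower under 1,2,3-trichloropropane, 4 and 2 under 1-amino-2-methylanthraquinone, 1 and 4 under 1,2-dichlorobenzene, 1 and 2 under hexachloroethane, 1 and 1 under monuron, and 2 and 0 under tetracycline. Socs2 was at -1.25 under 1,2-dichlorobenzene (adjusted p 0.00158).

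Markers of liver cell types moved too. Of 9 hepatocyte markers, 8 were lower under monuron and 1,2-dichlorobenzene, 6 under hexachloroethane, 1,2,3-trichloropropane and tetracycline, and 4 under 1-amino-2-methylanthraquinone, where 2 were higher and the median of the list was 0.06. Hnf4a, a hepatocyte transcription factor, went the other way and was called higher under monuron (0.94), 1-amino-2-methylanthraquinone (0.83), tetracycline (0.71) and hexachloroethane (0.41). Of 4 measured bile duct markers, 3 were higher under 1-amino-2-methylanthraquinone, with a median of 1.60 and a mean over the list of 1.10 to 1.50 by rat, and 1 or 2 were higher and 0 or 1 lower under each other compound.

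Of 6 measured stellate cell markers, 4 were higher under 1-amino-2-methylanthraquinone, and 4 were lower under 1,2-dichlorobenzene, 3 under hexachloroethane and under 1,2,3-trichloropropane, 2 under tetracycline and 1 under monuron. Of 4 measured macrophage markers, 2 were higher under monuron, 3 lower under 1,2-dichlorobenzene and 2 lower under 1,2,3-trichloropropane. Of 3 measured markers of liver endothelium, 3 were higher under monuron, 1 was higher under tetracycline and 2 were lower under hexachloroethane. Of 5 measured lymphocyte markers, 3 were higher under 1,2,3-trichloropropane, 3 were lower under hexachloroethane, 2 were lower under monuron and under 1,2-dichlorobenzene, and 1 was higher and 1 lower under 1-amino-2-methylanthraquinone. Both measured red cell precursor markers were higher under monuron, with a median of 1.39, and neither was called under the other 5 compounds. The only neutrophil marker measured, of 7, was higher under 1-amino-2-methylanthraquinone and lower under tetracycline. The pancreatic acinar marker that passed the filter was lower under hexachloroethane and 1,2-dichlorobenzene. Their part in the levels of the 4 genes was not tested, and in whole liver fewer cells of a type and less RNA per cell cannot be told apart.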

How the data were processed

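The members and gene lists were chosen with earlier results of these data known. The authors deposited scanner intensity readings of 24 2-colour Agilent arrays (Agilent Feature Extraction 9.1.3.1, per the submitters' processing notes) and a table of log2 ratios, found by comparison with the scanner's log10 ratio, per the file headers, to be treated over vehicle. From the intensities, limma 3.58.1 (R 4.3.3) made background-corrected (normexp, offset 50), loess-normalized log2 ratios. Control and outlier spots were left out and repeat spots averaged. Probes stayed in if either channel was clearly above background on every array of at least 1 compound, and a gene took its brightest probe. A model with a mean per compound and empirical Bayes moderation gave the tests, adjusted by Benjamini-Hochberg. Named genes were the members, up to 4 called genes per list with the largest change, and the 5 genes most like each member, of which 1 is not reported here. Scan day as a random block could not be fitted, since each compound lay in 1 day. The code was tested on simulated data. The labels call rats biological replicates, and p-values measure the spread between them.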

Additional observations from a re-analysis of the deposited data

Results flagged for a closer look

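Rat 2 of hexachloroethane had a Dusp1 log2 ratio of -0.16, while the other 3 rats lay between -2.26 and -1.96, and its gap to the nearest of them was 0.853 of the range of all 4. Of the 24 groups of 4 rats examined in this way 1 passed Dixon's 95% limit, which chance passes in about 1 group in 20.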

How the results depend on the processing

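The members' results were recomputed with the scanner's own ratio, median centring, the deposited value table, no filter on dim probes, the mean of a gene's probes, the replicate number as a block, only the arrays of a compound, a 2-fold minimum, and without each rat in turn. Most kept their direction and their side of the threshold: 266 of 288 values against vehicle, 255 of 264 against the other 5 compounds, 119 of 120 F tests and 116 of 116 comparisons of carcinogens with non-carcinogens. The scan day as a random block was not run, since every compound lay in 1 day.

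Median centring, which moved the median of all genes from between -0.02 and -0.01 to between -0.33 and -0.21, turned Jun under 1-amino-2-methylanthraquinone to -0.54, or -0.20 relative to that median against 0.04 with loess. It took the call from Egr1 there (0.48) and gave calls to Jun under 1,2,3-trichloropropane (-0.89), 1,2-dichlorobenzene (-0.80) and tetracycline (-0.52), to Gadd45g under 1-amino-2-methylanthraquinone (-1.36) and tetracycline (-0.93), and to Dusp1 against the other compounds under hexachloroethane (-0.85) and 1-amino-2-methylanthraquinone (-0.91). The mean of the probes left Jun not called under hexachloroethane (-0.37) and monuron (-0.50), and the fit of 1 compound alone called Jun under 1,2,3-trichloropropane (-0.46). The 2-fold minimum dropped Jun under hexachloroethane (-0.62) and monuron (-0.77) and Egr1 under 1-amino-2-methylanthraquinone (0.88).

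With the replicate number as a block, Jun (0.51) and Dusp1 (-0.75) under 1-amino-2-methylanthraquinone were called against the other compounds, and no other call changed. Of same-numbered pairs of rats, 22 of 60 correlated above 0.1 (range -0.26 to 0.39), and 8 of 24 rats correlated best with their own number. No value for differently numbered rats stands beside these, so they do not settle whether the numbers pair the rats.

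Leaving out 1 rat at a time, the results that changed a call ranged as follows. Against vehicle, Jun ran from -0.75 to -0.48 under hexachloroethane and from -0.90 to -0.64 under monuron, Dusp1 from -1.42 to -0.86 under monuron, Egr1 from 0.66 to 1.19 and Gadd45g from -1.06 to -0.29 under 1-amino-2-methylanthraquinone. Against the other compounds, hexachloroethane gave Egr1 -1.36 to -0.50, Dusp1 -1.19 to -0.49 and Gadd45g -1.78 to -1.25, and 1-amino-2-methylanthraquinone gave Dusp1 -1.02 to -0.58. Jun's F over the 6 compounds ran from 1.22 to 3.18. The number of arrays, 4 per compound, limits the precision. A rise or fall of a pooled control cannot be separated from that of the treated rats in a ratio.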
